A study of Homo sapiens with 18 samples.

Results

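The 9 genes described here encode the 5 human dopamine receptors (DRD1, DRD2, DRD3, DRD4 and DRD5) and 4 proteins that carry or limit the receptor signal in striatal neurons (GNAL, ADCY5, RGS9 and PPP1R1B). They were taken by gene symbol from the deposited count and TPM tables (transcript counts scaled by length and library size), which hold 53853 entries, and all 9 symbols were found. RNA was sequenced from human cerebral organoids, which are neural tissue grown in culture from stem cells, made with a ventral forebrain protocol that uses SHH and purmorphamine. The organoids came from 2 human embryonic stem cell lines, H9 (NIH 0062) and H1 (NIH 0043), and were treated at day 83, with 3 libraries in each of 6 groups. Chronic groups received 1 µM dopamine daily for 1 week and then a last dose of 1 h, acute groups received vehicle for the week and then 1 µM dopamine for 1 h, and controls received vehicle throughout. The vehicle, 100 µM ascorbic acid, was present in all 6 groups. Each line stands for a single genotype, so line differences are differences between these 2 lines. The labels do not say that libraries came from separate cultures, so p-values measure the spread between libraries, which may be technical.

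Dopamine receptors are G protein-coupled receptors of 2 classes. D1-like receptors (DRD1 and DRD5) couple to stimulatory G proteins and raise cyclic AMP, and D2-like receptors (DRD2, DRD3 and DRD4) couple to inhibitory G proteins and lower it. In the striatum the stimulatory alpha subunit is mainly the GNAL product and the main adenylyl cyclase is ADCY5, while the RGS9 protein speeds the turn-off of inhibitory alpha subunits and the PPP1R1B product (DARPP-32) becomes an inhibitor of protein phosphatase 1 once protein kinase A phosphorylates it.

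Sequencing depth was 13647204 to 21691180 counts in 17 libraries and 43284 counts in library 9, an H1 control. In library 9 a count of 3 stood for 69.3 CPM (counts scaled to a common library size) and in the others for 0.138 to 0.22 CPM, so it stayed in the statistical fits and was left out of all levels and means below. H1 control levels therefore rest on 2 libraries. Transcripts of blood cells set libraries 4, 8, 13, 17 and 18 apart: their sums over 10 such genes were 181 to 2972 counts, and those over 6 gut genes 1 to 11, whereas the other 13 had 0 to 32 blood and 21 to 83 gut counts, and none of the 5 was a chronic library. Summed levels of 11 ventral telencephalic and GABAergic markers were 851 to 1529 TPM in H9 libraries and 88.1 to 825 TPM in H1 libraries. Summed levels of 9 pallial (dorsal forebrain) markers were 15.5 to 33.0 TPM in H9 and 1906 to 4005 TPM in H1, and those of 11 hypothalamic markers were 567 to 1069 TPM in H9 and 1.55 to 33.5 TPM in H1. Only 6 of the 11 hypothalamic markers reached 1 TPM in every library of each H9 group, against 2, 2 and 0 in H1 chronic, acute and control libraries. AGRP and AVP were at 0 in H9 acute libraries and AGRP in H9 control libraries, so the sum does not stand for all 11. H1 libraries thus carried strong pallial markers despite the ventral protocol, and every line difference below stands beside these values; the part of these markers in them was not tested. In bulk RNA, fewer cells of a type and less RNA per cell cannot be told apart.

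The receptor genes DRD5 and DRD4 and the regulator RGS9 differed between the lines in every library, and their promoter sequences are shown for that reason. Each is the RefSeq window from 250 bases before to 50 bases after the gene start in GRCh38.p14, written 5′ to 3′ on the gene's strand, with capitals marking the GC box GGGCGG on either strand. The DRD5 window is chr4:9781384-9781683 (plus strand), the DRD4 window is chr11:637019-637318 (plus strand) and the RGS9 window, whose RefSeq start lies inside the GENCODE gene body, is chr17:65137120-65137419 (plus strand).
DRD5: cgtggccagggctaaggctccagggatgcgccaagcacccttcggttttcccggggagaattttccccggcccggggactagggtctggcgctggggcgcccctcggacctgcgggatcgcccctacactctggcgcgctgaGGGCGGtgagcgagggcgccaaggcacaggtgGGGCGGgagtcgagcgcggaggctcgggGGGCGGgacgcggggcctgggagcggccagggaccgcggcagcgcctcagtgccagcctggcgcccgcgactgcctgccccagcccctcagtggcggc
DRD4: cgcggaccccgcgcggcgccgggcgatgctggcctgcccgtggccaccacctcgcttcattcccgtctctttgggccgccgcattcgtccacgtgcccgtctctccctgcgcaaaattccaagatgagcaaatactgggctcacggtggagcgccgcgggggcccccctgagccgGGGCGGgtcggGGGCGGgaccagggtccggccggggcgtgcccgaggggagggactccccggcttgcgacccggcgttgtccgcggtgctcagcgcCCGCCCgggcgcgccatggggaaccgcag
RGS9: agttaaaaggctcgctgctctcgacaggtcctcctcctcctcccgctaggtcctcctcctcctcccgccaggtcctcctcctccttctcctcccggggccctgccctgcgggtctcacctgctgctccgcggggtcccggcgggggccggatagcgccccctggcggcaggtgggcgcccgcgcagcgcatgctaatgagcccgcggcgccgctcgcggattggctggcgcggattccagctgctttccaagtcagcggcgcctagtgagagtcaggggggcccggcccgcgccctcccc
The DRD5 and DRD4 windows are both rich in G and C (75.3% and 75.0%), and each holds 3 GC boxes. The RGS9 window is 72.7% G and C and holds no GC box. Promoter windows matched 7 of the 9 genes; DRD2 and PPP1R1B had no entry. The DRD1 window held 3 GC boxes, the ADCY5 window 2, the GNAL window 1 and the DRD3 window, at 35.0% G and C, none. Like that of RGS9, the RefSeq start of the DRD3 window (chr3:114179003-114179302, minus strand) lies inside the GENCODE gene body. GC boxes occur in 45% of all 35116 promoter windows, whose median G and C content is 58.7%. None of the 7 windows held, on either strand, the cyclic AMP response element TGACGTCA (in 1.85% of all windows), its TGACG core (24.6%), the homeodomain core TAATTA (4.84%) or the antioxidant element TGACNNNGC (13.3%). The full element contains the core, and a letter match or its absence is a description of the window only.

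Of the 8 genes with enough counts to be tested, H9 organoids had more of 5 and less of 2 than H1 organoids, and ADCY5 did not pass in either direction, by edgeR's quasi-likelihood F test, at a Benjamini-Hochberg threshold of 0.05 over 17173 genes. Across all tested genes 36.6% were higher and 32.7% lower in H9 by the same rule, 69.3% together, so most genes differed between the lines and the count of these genes is near that background. DRD3 did not pass the low-count filter. The H9 and H1 ranges of TPM did not overlap for DRD5, DRD2, GNAL and RGS9, which were higher in H9, nor for DRD4 and PPP1R1B, which were lower in H9; among all tested genes such ranges were found in 21.9% with H9 higher and in 20.5% with H9 lower. In controls alone, where 47.3% of all tested genes passed, the same 7 genes passed in the same directions.

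**Figure D1:**
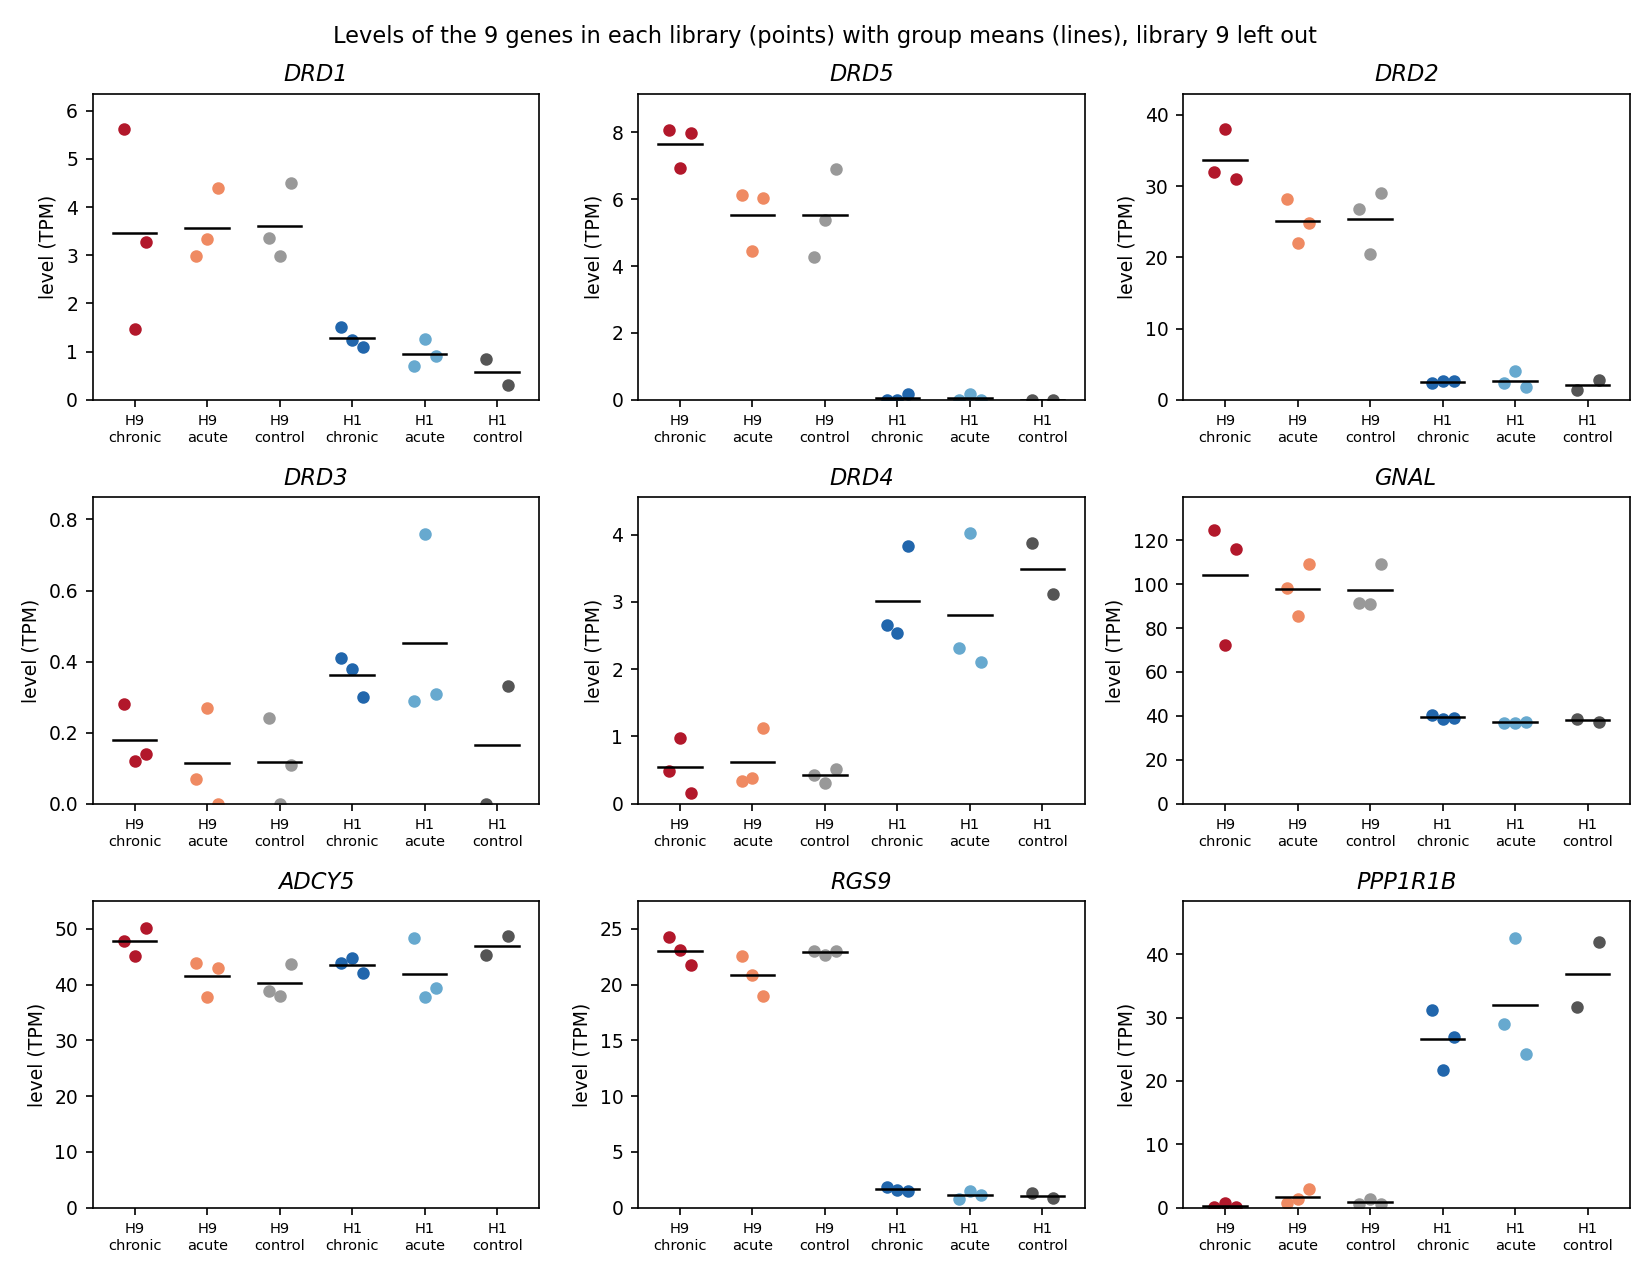
Level in TPM (y axis) of each of the 9 genes in each library (points) by line and treatment (x axis), with group means as lines; library 9 is left out. DRD5, DRD2, GNAL and RGS9 lie higher in all 9 H9 libraries than in all 8 H1 libraries, DRD4 and PPP1R1B lie lower, and ADCY5 spans 37.7 to 50.2 TPM in H9 and 37.8 to 48.7 TPM in H1.

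DRD1, the main D1-like receptor of the direct striatal pathway (chromosome 5, 175440036 to 175444182, minus strand, GRCh38), had 5.62, 1.47 and 3.27 TPM in H9 chronic, 2.99, 3.34 and 4.39 TPM in H9 acute and 3.36, 2.99 and 4.49 TPM in H9 control libraries. In H1 it had 1.52, 1.24 and 1.09 TPM in chronic, 0.7, 1.26 and 0.9 TPM in acute and 0.84 and 0.31 TPM in control libraries. The lines overlapped only through library 11, an H9 chronic library at 1.47 TPM, and 1 H1 chronic library at 1.52 TPM. DRD1 was higher in H9 with a log2 fold change of 1.97 ± 0.23 (SE; adjusted p = 2.97e-07).

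DRD5, the other D1-like receptor (chromosome 4, 9781634 to 9784009, plus strand), was read in every H9 library and almost absent from H1. It had 8.08, 6.92 and 7.99 TPM in H9 chronic, 6.12, 4.45 and 6.04 TPM in H9 acute and 4.27, 5.39 and 6.9 TPM in H9 control libraries. In H1 it was at 0 in all libraries except 1 chronic library at 0.16 TPM and 1 acute library at 0.17 TPM, each from 2 counts. Summed over libraries, H9 held 651 counts and H1 held 4, a ratio of CPM of 158 (exact 95% interval 61.3 to 580, counting error only). H1 controls held 0 counts, and with 3 counts over that group as the floor DRD5 was at least 49.4-fold higher in H9 controls. The fitted log2 fold change over the treatments was 7.43 ± 0.40 (adjusted p = 7.09e-12), and its size depends on the prior count because H1 is near 0. DRD5 has near-identical pseudogene copies, of which DRD5P2 had 100 counts in H9 and 2 in H1 and DRD5P1 had none, so the split of reads between DRD5 and its copies is uncertain. DRD5 also lies inside SLC2A9 on the opposite strand, which had 53 counts in H9 and 4 in H1; the counting is not stated to use strand, so reads of the pair cannot be told apart. Within H1 no treatment fold change is given for DRD5, since its groups held 2, 2 and 0 counts.

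DRD2, the D2-like receptor of the indirect striatal pathway and also an autoreceptor of dopamine neurons (chromosome 11, 113409605 to 113475691, minus strand), was the most abundant receptor in H9. It had 32.0, 38.0 and 31.0 TPM in H9 chronic, 28.2, 22.1 and 24.9 TPM in H9 acute and 26.8, 20.5 and 29.0 TPM in H9 control libraries. In H1 it had 2.37, 2.65 and 2.61 TPM in chronic, 2.29, 4.01 and 1.81 TPM in acute and 1.38 and 2.76 TPM in control libraries. The lowest H9 library was above the highest H1 library, and the log2 fold change was 3.52 ± 0.17 (adjusted p = 1.9e-13).

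DRD4, a D2-like receptor expressed in cortex and retina (chromosome 11, 637269 to 640706, plus strand), went the other way. It had 0.49, 0.98 and 0.16 TPM in H9 chronic, 0.34, 0.38 and 1.13 TPM in H9 acute and 0.43, 0.31 and 0.52 TPM in H9 control libraries. In H1 it had 2.65, 2.54 and 3.83 TPM in chronic, 2.31, 4.02 and 2.1 TPM in acute and 3.88 and 3.11 TPM in control libraries. Every H9 library was below every H1 library, on 1 to 7 counts in H9 and 14 to 28 in H1. The log2 fold change was -3.12 ± 0.77 (adjusted p = 0.00123) with all libraries and -2.52 ± 0.32 (adjusted p = 1.64e-06) without library 9. Library 9 alone held 14 counts of DRD4 where 0.0602 would follow from the other H1 controls at its depth, so its value there is far from theirs, and the fold change reached -4.12 when another H1 control was left out in its place.

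DRD3, a D2-like receptor of the ventral striatum (chromosome 3, 114127580 to 114199407, minus strand), had 0 to 5 counts in H9 libraries and, library 9 aside, 0 to 12 in H1 libraries. Its level was 0 to 0.28 TPM in H9 and 0 to 0.76 TPM in H1, with overlapping ranges. Pooled over libraries it had 20 counts in H9 and 47 in H1, a ratio of H1 to H9 of 2.43 (exact 95% interval 1.41 to 4.32, which covers counting error only). It was left out of the main replicate test, and edgeR without the low-count filter did not call it between the lines.

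The make-up of the receptor set therefore differed between the lines, as the share of each receptor in the summed TPM of DRD1 to DRD5 shows. In H9 the median shares were 72.3% for DRD2, 16.6% for DRD5, 10.3% for DRD1, 1.23% for DRD4 and 0.268% for DRD3. In H1 they were 41.2% for DRD4, 37.1% for DRD2, 13.7% for DRD1, 5.38% for DRD3 and 0% for DRD5. The DRD2 share was 68.3 to 80.0% in H9 and 22.6 to 42.4% in H1, and the DRD4 share was 0.376 to 3.1% in H9 and 37.3 to 63.6% in H1, so neither overlapped between the lines. The DRD1 share overlapped, at 3.1 to 12.1% in H9 and 4.76 to 21.9% in H1.

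**Figure D2:**
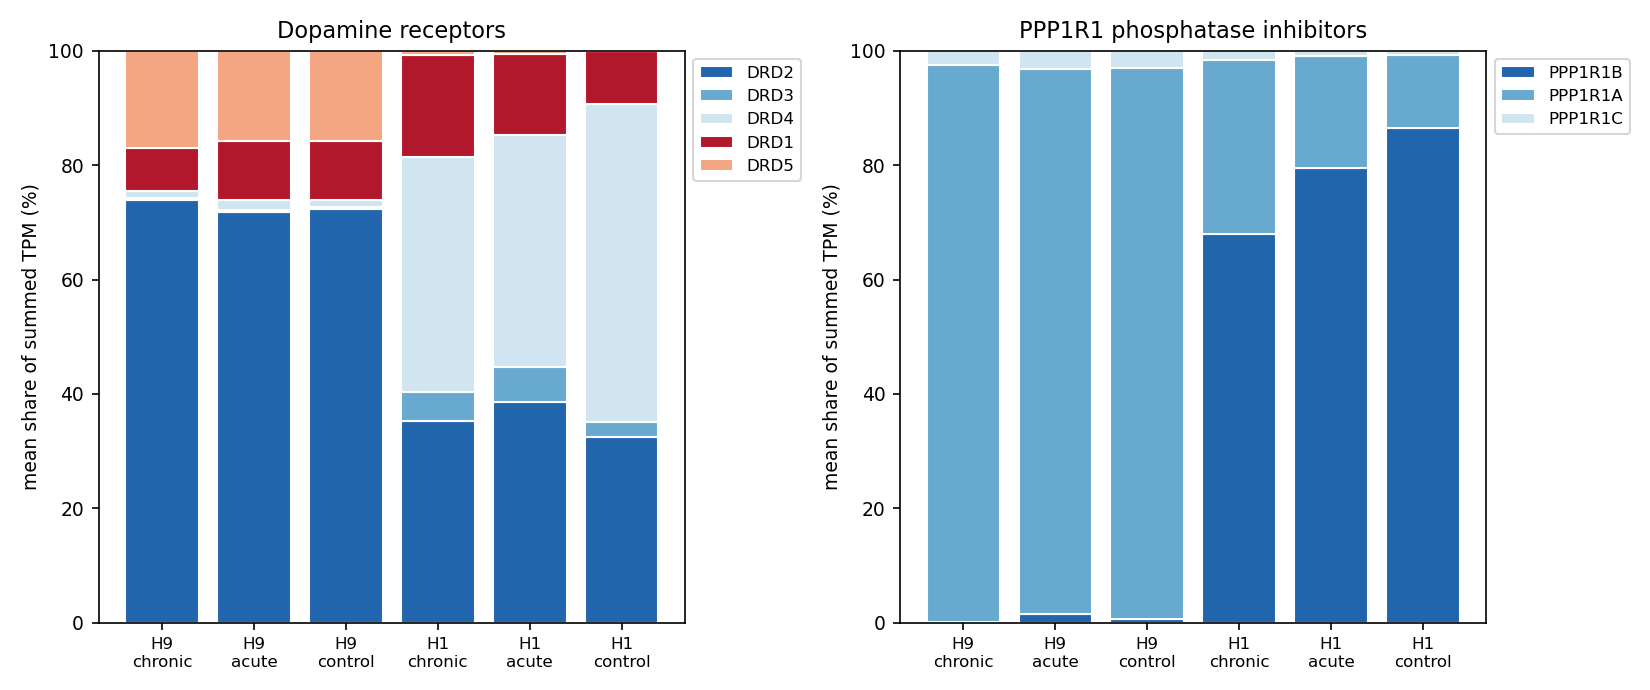
Mean share (y axis, percent of summed TPM) of each of the 5 dopamine receptors (left) and of the 3 PPP1R1 phosphatase inhibitors (right) in each line and treatment (x axis), library 9 left out. DRD2 has the widest band in the H9 groups, DRD4 and DRD2 share most of the H1 groups, and PPP1R1A fills the H9 bars where PPP1R1B leads in H1.

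GNAL, the stimulatory alpha subunit of striatal and olfactory neurons (chromosome 18, 11689264 to 11885685, plus strand), had 124.7, 72.1 and 116.2 TPM in H9 chronic, 98.4, 85.5 and 109.0 TPM in H9 acute and 91.2, 91.1 and 109.0 TPM in H9 control libraries. In H1 it lay within 36.9 to 40.2 TPM in all 8 libraries, with an SD of 1.18 TPM against 16.5 TPM in H9. The ranges did not overlap, and the log2 fold change was 1.40 ± 0.14 (adjusted p = 1.52e-08). GNAS, its ubiquitous relative, was more abundant in both lines, with medians of 1045 TPM in H9 and 642 TPM in H1, and GNAL made up 5.63 to 11.2% of the pair in H9 and 4.52 to 6.31% in H1. GNAL contains the gene CHMP1B on the same strand, which had 6756 counts in H9 and 12115 in H1, so reads in that stretch could be assigned to either gene.

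ADCY5, the main striatal adenylyl cyclase (chromosome 3, 123282296 to 123449090, minus strand), had 47.9, 45.2 and 50.2 TPM in H9 chronic, 43.9, 37.7 and 43.0 TPM in H9 acute and 38.9, 38.0 and 43.8 TPM in H9 control libraries. In H1 it had 43.9, 44.9 and 42.1 TPM in chronic, 48.4, 37.8 and 39.4 TPM in acute and 45.3 and 48.7 TPM in control libraries. The ranges overlapped almost fully, and the log2 fold change was -0.02 ± 0.10 (adjusted p = 0.879), with a sign that changed with the scaling. Among the 9 membrane cyclases ADCY5 held 12.8 to 21.5% of the summed TPM in H9 and 16.6 to 20.4% in H1, below ADCY1, whose medians were 99.1 TPM in H9 and 96.0 TPM in H1. ADCY2 averaged 45.4 TPM in H9 acute and 45.8 TPM in H9 control libraries, more than ADCY5 there, and 33.3 TPM in H9 chronic libraries; its median in H1 was 26.4 TPM.

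RGS9, a regulator of inhibitory G proteins with a long striatal and a short retinal form (chromosome 17, 65100812 to 65227703, plus strand), had 24.2, 23.1 and 21.7 TPM in H9 chronic, 22.6, 20.9 and 19.0 TPM in H9 acute and 23.0, 22.7 and 23.0 TPM in H9 control libraries. In H1 it had 1.88, 1.61 and 1.48 TPM in chronic, 0.76, 1.49 and 1.14 TPM in acute and 1.28 and 0.85 TPM in control libraries. The lines were far apart, with a log2 fold change of 4.14 ± 0.13 (adjusted p = 6.12e-16). Of its R7 family, RGS11 was higher in H9 as well. Medians over each line were close for RGS7, at 34.4 TPM in H9 and 31.0 TPM in H1. They were also close for RGS6, at 3.44 TPM in H9 and 3.24 TPM in H1. By treatment, RGS7 averaged 37.34, 35.1 and 33.65 TPM in H9 chronic, acute and control libraries. In H1 it averaged 25.17, 32.15 and 41.52 TPM in the same order. RGS9 therefore made up 25.1 to 30.6% of the R7 family in H9 and 1.62 to 5.39% in H1. The 14 retinal and photoreceptor markers summed to 15.96 to 24.1 TPM in H9 and 9.22 to 12.2 TPM in H1; their part in the RGS9 difference was not tested.

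PPP1R1B (chromosome 17, 39626740 to 39636626, plus strand), a marker of striatal projection neurons that cortical neurons also express, was low in H9. It had 0.08, 0.76 and 0.16 TPM in H9 chronic, 0.76, 1.38 and 3.03 TPM in H9 acute and 0.63, 1.37 and 0.64 TPM in H9 control libraries. In H1 it had 31.2, 21.7 and 26.9 TPM in chronic, 29.0, 42.6 and 24.3 TPM in acute and 31.7 and 41.9 TPM in control libraries. The highest H9 library was below the lowest H1 library, and the log2 fold change was -5.27 ± 0.25 (adjusted p = 1.9e-13). Its relative PPP1R1A, another phosphatase 1 inhibitor, had the opposite line difference, with 106.2 to 176.6 TPM in H9 and 4.15 to 13.1 TPM in H1 and a log2 fold change of 4.04 ± 0.15 (adjusted p = 6.27e-15). PPP1R1B made up 0.0633 to 2.69% of the summed TPM of PPP1R1A, PPP1R1B and PPP1R1C in H9 and 66.6 to 90.5% in H1.

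**Figure D3:**
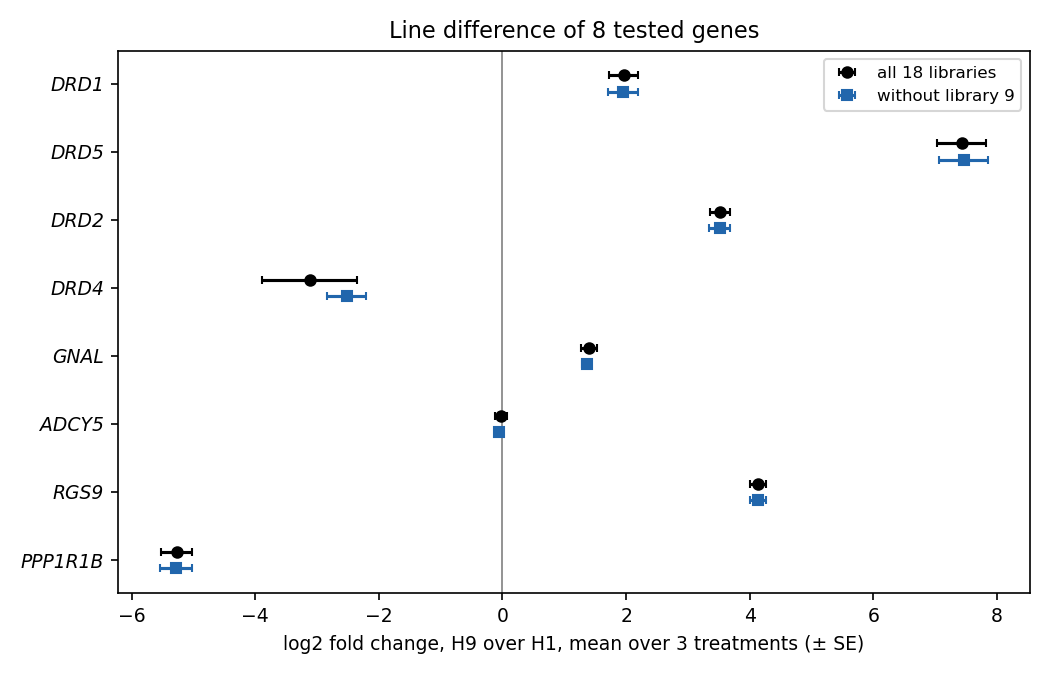
Log2 fold change of H9 over H1 (x axis), as the mean over the 3 treatments with its SE, for the 8 tested genes (y axis), from all 18 libraries (circles) and without library 9 (squares). RGS9 and DRD5 lie farthest to the right at 4.14 and 7.43, PPP1R1B farthest to the left at -5.27, and ADCY5 sits at -0.02.

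The order of levels also differed. In all 3 H9 groups it was GNAL, ADCY5, DRD2, RGS9, DRD5 and DRD1, with PPP1R1B, DRD4 and DRD3 last; DRD4 preceded PPP1R1B in the chronic libraries. Neighbours whose ranges overlapped were DRD2 and RGS9 in acute and control libraries, DRD5 and DRD1 in control libraries, DRD1 and PPP1R1B in acute libraries, PPP1R1B and DRD4 in chronic and acute libraries, and PPP1R1B and DRD3 in chronic libraries. In all 3 H1 groups it was ADCY5, GNAL, PPP1R1B, DRD4, DRD2, RGS9, DRD1, DRD3 and DRD5. There GNAL and PPP1R1B overlapped in acute and control libraries, DRD4 and DRD2 as well as RGS9 and DRD1 in chronic and acute libraries, DRD1 and DRD3 in acute and control libraries, and DRD3 and DRD5 in control libraries.

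Genes whose log2 CPM followed each gene most closely over the 6 group means were sought among genes with a mean log2 CPM of at least 0, by the root mean square difference after centring. DRD1 was nearest to MAN1A1 (0.071), HEPACAM (0.073) and OLIG2 (0.087), DRD2 to LINC00346 (0.099), MT1E (0.103) and ACHE (0.104), and DRD4 to NPTX1 (0.09), RMI2 (0.092) and LOC105378745 (0.123). GNAL was nearest to USP11 (0.025), SLC17A5 (0.028) and PJA1 (0.034), ADCY5 to ARMC6 (0.033), SAMD14 (0.035) and GEMIN6 (0.035), and RGS9 to CXorf57 (0.062), ITGBL1 (0.085) and NHSL2 (0.095). DRD5 was nearest to S100A10 (0.248), GATA3-AS1 (0.251) and TLR4 (0.251), and PPP1R1B to LOC105376268 (0.163), FRG1BP (0.18) and GLI3 (0.232). Within a difference of 0.25 lay 5494 genes for ADCY5, 947 for GNAL, 108 for DRD4, 107 for DRD1, 57 for DRD2, 53 for RGS9, 3 for PPP1R1B and 1 for DRD5. DRD5 and PPP1R1B thus had few genes within that difference, whereas the flat profile of ADCY5 was shared with many. The difference is not scaled to the size of a profile, so a large line difference leaves fewer near genes. In H1, where its groups held 2, 2 and 0 counts, the profile of DRD5 also depends on the added counts.

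Other genes of the pathway were taken from 4 lists. Of 27 G proteins and adenylyl cyclases, 9 were higher and 3 lower in H9 (median log2 fold change 0.11, against 0.03 over all genes). That is 44.4% called, below the 69.3% of all tested genes (36.6% higher and 32.7% lower). The cyclases ADCY8 (3.65 ± 0.12, adjusted p = 5.44e-16) and ADCY7 (3.02 ± 0.12, adjusted p = 1.74e-14) were higher in H9, as was GNG7 (1.32 ± 0.10, adjusted p = 3.55e-10), the gamma subunit that pairs with the GNAL product in striatum. RIC8B (0.59 ± 0.09), a chaperone of stimulatory alpha subunits, and ADCY2 (0.64 ± 0.10) were also higher, while the gamma subunit GNG5 was lower in H9 (-1.21 ± 0.12, adjusted p = 1.56e-08).

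Of 26 genes of protein kinase A, phosphatases and phosphodiesterases, 14 were higher and 5 lower in H9 (median 0.30), and the 73.1% called is near the 69.3% of all tested genes. Besides PPP1R1A, the calcium-dependent phosphodiesterase PDE1B (3.75 ± 0.14, adjusted p = 7.77e-15), PPP1R1C (3.22 ± 0.19, adjusted p = 8.18e-12), the catalytic subunit PRKACA (1.11 ± 0.11) and PDE4B (0.95 ± 0.12) were higher, and PDE2A was lower (-0.93 ± 0.12). Of 22 RGS proteins, receptor kinases and arrestins found in the table, 12 were higher and 4 lower (median 0.36), led by RGS4 (6.53 ± 0.16, adjusted p = 2.62e-17), RASD2 (2.93 ± 0.12) and RGS8 (2.66 ± 0.09); the share called, 72.7%, is again near that of all tested genes. RGS11 (1.85 ± 0.13), the arrestin gene ARRB1 (1.42 ± 0.10) and RGS2 (1.24 ± 0.09) were higher as well.

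Of 30 striatal projection neuron genes, 21 were higher and 7 lower in H9 (median 1.39), 93.3% in all, where 36.6% of all tested genes were higher and 32.7% lower. TAC1, the precursor of substance P in direct-pathway neurons, had 230.7 to 296.1 TPM in H9 and 0.45 to 8.64 TPM in H1, a log2 fold change of 6.58 ± 0.16 (adjusted p = 2.62e-17). SYNDIG1L (5.55 ± 0.19) and the transcription factor ISL1 (6.22 ± 0.30) were higher as well, whereas BCL11B (CTIP2), a transcription factor of striatal and deep-layer cortical neurons, was lower in H9 (-4.22 ± 0.17, adjusted p = 1.14e-14). ADORA2A, the adenosine receptor of indirect-pathway neurons, did not differ past the threshold (0.00 ± 0.23, adjusted p = 0.989). Neither the list nor the 9 genes thus moved as a block. In the list TAC1 was higher in H9 and BCL11B lower, and among the 9 genes DRD2 and RGS9 were higher and PPP1R1B lower.

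The treatment comparisons asked what dopamine did to these genes. None of the 8 tested genes passed in any of them by edgeR with the low-count filter. Without that filter edgeR called PPP1R1B in H9 chronic against acute (-2.12 ± 0.45, adjusted p = 0.0013), where it called 1.37% of all genes lower. In H9 chronic against control 0.576% of all tested genes passed, in H1 1.42%, and in acute against control 0% in H9 and 0.0175% in H1. Chronic against acute gave 0.949% in H9 and 0.128% in H1, and the difference between the lines in the effect of dopamine gave 1.76% for chronic and 0% for acute. At an unadjusted p under 0.05 stood DRD2 in H9 chronic against control, DRD1 and RGS9 in H1 chronic against control, and DRD2 and PPP1R1B in H9 chronic against acute, and none in the other 5 comparisons. Of all tested genes, 8.31% were under that unadjusted p in H9 chronic against control, 8.81% in H1 chronic against control and 11.8% in H9 chronic against acute. Controls are shared by the acute and chronic comparisons within a line. Neither of the authors' deposited tables of changed genes, which list 55 genes for acute and 213 for chronic dopamine, holds any of the 9.

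**Figure D4:**
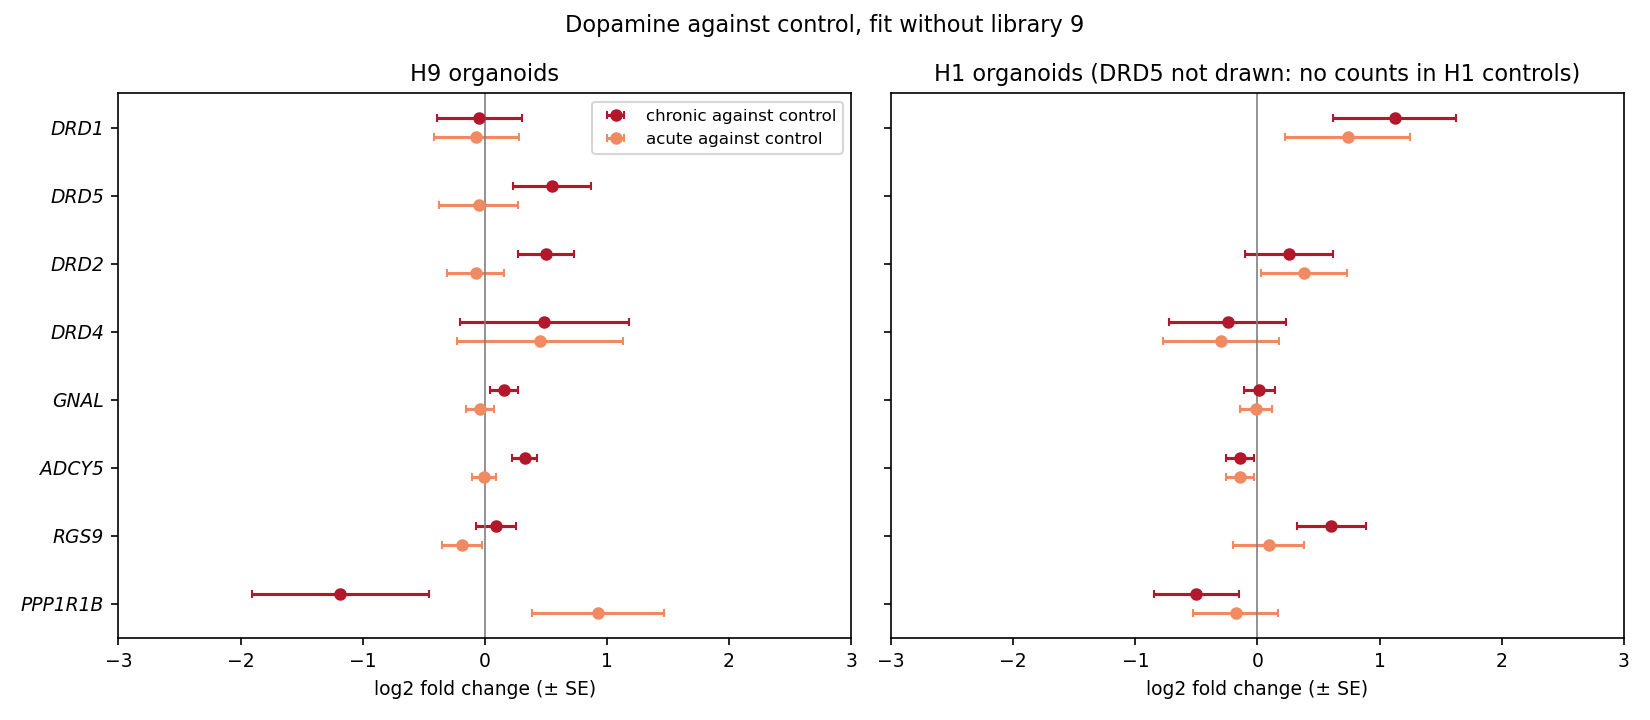
Log2 fold change with its SE (x axis) of the tested genes (y axis) for chronic and acute dopamine against control in H9 (left) and H1 (right), from the fit without library 9. The values of GNAL stay within 0.3 of 0 in both lines, and PPP1R1B in H9 lies at -1.18 for chronic and 0.93 for acute.

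In H9, DRD2 averaged 33.7 ± 3.77 TPM in chronic, 25.0 ± 3.07 TPM in acute and 25.4 ± 4.43 TPM in control libraries (SD, n = 3 each). All 3 chronic libraries were above all acute and control libraries. The share of all tested genes whose libraries separate by treatment was not counted, here or below, so such an order is a description only. The log2 fold change was 0.49 ± 0.22 against control (adjusted p = 0.566, edgeR) and 0.56 ± 0.22 against acute (adjusted p = 0.308); without library 11, the chronic library highest in DRD2, these were 0.28 and 0.36. DRD5 averaged 7.66 ± 0.645, 5.54 ± 0.942 and 5.52 ± 1.32 TPM in H9 chronic, acute and control libraries, and the lowest chronic library, at 6.92 TPM, was just above the highest control library at 6.9 TPM. Its log2 fold change was 0.53 ± 0.32 against control (adjusted p = 0.777) and 0.59 ± 0.32 against acute (adjusted p = 0.496).

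ADCY5 averaged 47.8 ± 2.53 TPM in chronic, 41.5 ± 3.33 TPM in acute and 40.2 ± 3.09 TPM in control H9 libraries, and the 3 chronic libraries were again the highest of the line. The log2 fold change in H9 was 0.31 ± 0.17 for chronic against control (adjusted p = 0.693) with all libraries and 0.33 ± 0.10 (adjusted p = 0.183) without library 9. Chronic against acute gave 0.32 ± 0.17 (adjusted p = 0.471). DESeq2 without library 9 called the chronic difference from control (0.32 ± 0.10, adjusted p = 0.043), as well as the difference of the chronic effect between H9 and H1 (0.47 ± 0.14, adjusted p = 0.0316); it called 0.21% of all genes higher in that comparison and 0.71% in that difference, and was added after the data were seen. Chronic libraries of H9 also held lower sums of 11 midbrain dopamine neuron markers, at 59.8 to 68.3 TPM, than acute (89.4 to 134.5 TPM) and control libraries (110.6 to 118.7 TPM), and their part in the values of DRD2, DRD5, ADCY5 and PPP1R1B was not tested.

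PPP1R1B in H9 had 1, 11 and 2 counts in chronic, 9, 22 and 38 in acute and 9, 18 and 10 in control libraries. Chronic and acute libraries overlapped through library 11, and the log2 fold change of chronic against acute was -2.12 ± 0.61 (adjusted p = 0.118, edgeR with the low-count filter). It was -3.70 without library 11 and -1.51 without library 15, and DESeq2, which called 0.419% of all genes lower there, called it (-2.28 ± 0.59, adjusted p = 0.0274). Against control it was -1.20 ± 0.68 for chronic (adjusted p = 0.741; -2.78 without library 11) and 0.92 ± 0.51 for acute (adjusted p = 1; 0.31 without library 15).

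In H1, DRD1 averaged 1.28 ± 0.218 TPM in chronic (n = 3), 0.953 ± 0.284 TPM in acute (n = 3) and 0.575 ± 0.375 TPM in control libraries (n = 2). The 3 chronic libraries were above both controls, an order of few libraries whose share over all genes was not counted. The log2 fold change was 1.13 ± 0.49 for chronic against control (adjusted p = 0.461, edgeR), and it rested on 15 and 6 counts in the controls, being 2.00 without library 7 and 0.57 without library 8. The difference between the lines in the chronic effect on DRD1 was -1.18 ± 0.60 (adjusted p = 0.472). RGS9 averaged 1.66 ± 0.204, 1.13 ± 0.365 and 1.07 ± 0.304 TPM in H1 chronic, acute and control libraries, with all chronic libraries above both controls and a log2 fold change of 0.61 ± 0.28 (adjusted p = 0.535), which was 0.95 without library 7 and 0.33 without library 8. Chronic against acute gave 0.51 ± 0.25 for RGS9 (adjusted p = 1), or 0.26 without library 4. Ventral telencephalic and GABAergic markers summed to 482 to 825 TPM in these H1 chronic libraries, 194 to 554 TPM in acute and 88.1 to 186 TPM in control libraries, and pallial markers to 1906 to 2275, 2439 to 3217 and 3205 to 4005 TPM. The part of these marker differences in DRD1, RGS9 and PPP1R1B was not tested.

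PPP1R1B in H1 averaged 26.6 ± 4.79 TPM in chronic, 31.9 ± 9.53 TPM in acute and 36.8 ± 7.18 TPM in control libraries, with chronic libraries at or below 31.2 TPM and controls at or above 31.7 TPM. The log2 fold change of chronic against control was -0.50 ± 0.33 (adjusted p = 0.817). Its share among the PPP1R1 inhibitors was 67.9 ± 1.83% in chronic, 79.5 ± 7.65% in acute and 86.5 ± 5.68% in control libraries, as PPP1R1A averaged 11.9, 7.54 and 5.27 TPM in the same groups (chronic against control log2 fold change 1.15 ± 0.30, adjusted p = 0.061). DRD4 in H1 had log2 fold changes of -2.06 ± 1.30 for chronic and -2.12 ± 1.30 for acute against control with all libraries, and -0.24 ± 0.48 and -0.30 ± 0.48 without library 9. DESeq2 with all libraries called DRD4 in both comparisons (-5.99 ± 1.31, adjusted p = 0.00119, and -6.06 ± 1.31, adjusted p = 0.0049), where it called 0.617% and 0.291% of all genes lower, and neither tool called DRD4 without library 9.

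Further values in the treatment comparisons did not pass either. In H9, acute against control gave log2 fold changes of -0.07 ± 0.34 for DRD1, -0.08 ± 0.23 for DRD2, -0.05 ± 0.22 for GNAL and -0.19 ± 0.17 for RGS9. In H1, acute against control gave 0.74 ± 0.50 for DRD1 and 0.39 ± 0.34 for DRD2, and chronic against control gave 0.26 ± 0.34 for DRD2, 0.12 ± 0.24 for GNAL and -0.06 ± 0.18 for ADCY5. GNAL did not exceed 0.20 on the log2 scale in any treatment comparison within a line. A p that misses the threshold does not show that these levels were alike.

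Of the 4 lists, the striatal projection neuron genes held most of the calls under dopamine. In H1 chronic against control 8 of 30 were higher and none lower (median 0.35, against 0.05 over all genes), by edgeR, which called 1.33% of all tested genes higher there. Limma called 4 of the 30 higher with 1 added to TPM and 1 with 0.1 added, where it called 50 and 45 of all 17173 tested genes higher. In these 2 fits, which include library 9, the median of all genes shifted by 0.8 and 1.62. Ventral telencephalic markers were higher and pallial markers lower in these chronic libraries than in the controls, by the sums given above, and their part in these 8 calls was not tested. Among them RXRG averaged 9.96 ± 2.996 TPM in chronic and 1.49 ± 0.17 TPM in control libraries (2.71 ± 0.30, adjusted p = 7.28e-05), TAC1 averaged 8.21 ± 0.481 TPM in chronic and 1.02 ± 0.806 TPM in control libraries (2.98 ± 0.41, adjusted p = 0.000546), and PDE1B averaged 5.22 ± 0.132 TPM in chronic and 1.24 ± 0.417 TPM in control libraries (2.01 ± 0.29, adjusted p = 0.000933). SIX3 (2.60 ± 0.43, adjusted p = 0.00309) was the other of the 4 with the smallest p, and EBF1, ISL1, SP9 and ZNF503 made up the 8. The count was 7 without library 9, 5 without library 7 and 2 without library 8, which held blood transcripts. Over all tested genes, edgeR called 229 of 17567, 157 of 17529 and 34 of 17522 higher in these fits. In H9 none of the 30 passed in chronic against control by edgeR with all libraries and the low-count filter. Without library 9 edgeR called 1 of them lower, and 111 of all 17567 genes. Without the filter it called 1 lower, and 1.49% of all genes. DESeq2 without library 9 called 2 lower, and 1.77% of all genes. With all libraries and the filter, edgeR called the difference between the lines in the chronic effect for 8, each with the more negative effect in H9, as it did for 1.7% of all tested genes. That count was 4 without library 7, 2 without library 8, and 2 and 0 in the limma fits. The counts over all genes there were 182 of 17529, 65 of 17522, and 42 and 10 of 17173. Among the gut-transcript libraries the H9 control is library 16 alone and the H1 controls are library 7 and the shallow library 9. Fits to those libraries rest on about 1 control a line, assumed to vary like the other groups, so only effect sizes are given here. The median log2 fold change of the 30 genes there was 0.34 in H1 chronic against control and -0.35 in the difference between the lines.

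Outside that list, ADCY8 (1.13 ± 0.23, adjusted p = 0.0146) and RGS4 (2.23 ± 0.39, adjusted p = 0.00482) rose and RGS7 fell (-0.70 ± 0.17, adjusted p = 0.0445) in H1 chronic against control, and none of these 3 calls was made without library 8. ADCY8 was not called without library 1 or 2 either, and the call of RGS7 was lost when any of 15 libraries was left out. In chronic against acute, TAC1 (1.71 ± 0.30, adjusted p = 0.0302) and PDE1B (1.19 ± 0.23, adjusted p = 0.0476) passed in H1, and EBF1 (-2.06 ± 0.39, adjusted p = 0.0136) and FOXP1 (-0.86 ± 0.19, adjusted p = 0.0354) in H9. With single libraries left out, 0 to 3 of the striatal projection neuron genes were higher in H1 and 0 to 3 lower in H9 in this comparison, with 0 in H1 without library 1, 2, 3 or 4 and 0 in H9 without library 11, 12, 14 or 15. Over all 17442 to 17567 tested genes, these fits called 1 to 36 higher in H1 and 41 to 216 lower in H9. The H1 counts were 1, 4, 2 and 2 without library 1, 2, 3 or 4. The H9 counts were 68, 41, 48 and 96 without library 11, 12, 14 or 15. No gene of the 4 lists passed in acute against control in either line by edgeR with all libraries and the low-count filter. Among the 30 striatal projection neuron genes, without that filter edgeR called 4 higher in H1 and 1 higher in H9. Of all genes it called 0.291% higher in H1 and 0.216% in H9 there. Without library 4 it called 2 of the 30 higher in H1, and 16 of all 17535 genes. DESeq2 called 1 of the 30 higher in H1 with or without library 9, where 0.0757% and 0.134% of all genes were higher. Of the RGS proteins, kinases and arrestins DESeq2 with all libraries called 1 lower in H1, where it called 0.291% of all genes lower. Without library 9 it called 0 of all 17173 genes lower there. Of the genes on the 4 lists, the authors' deposited table for acute dopamine holds EBF1 and that for chronic dopamine holds 0.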

How the data were processed

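The authors deposited raw read counts and TPM per gene symbol for 18 libraries; the TPM columns are so named per the file headers. Libraries were poly(A) selected, paired-end and strand-specific (dUTP), per the labels' protocols; builds GRCh38 and hg38 are named in the submitters' processing notes, and the sources used here name no aligner, counter or annotation. The authors also deposited tables of changed genes with p-values, used only for membership. Of the deposited symbols, 28 had turned into dates (0.439% of counts).

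Groups and library numbers come from the labels. The 9 genes, the lists and the markers were chosen with earlier results of these data known. Counts were tested with edgeR 4.0.16 (R 4.3.3; TMM scaling, filterByExpr, quasi-likelihood F test) in 1 fit of 6 group means over 18 libraries, adjusted by Benjamini-Hochberg over 17173 genes at 0.05; SE is the log2 fold change over the root of F. The fit was tested on simulated data. Alternatives were DESeq2 1.42.0, limma 3.58.1 on log2(TPM + 1) and log2(TPM + 0.1), other scalings and filters (none, or 1 CPM in 3 libraries), the blood and gut split, subsets, and each library left out; fits without libraries 9 and 11, DESeq2 without library 9 and the list counts under these settings were added after the data were seen. Levels are TPM; profiles used 0.5 added counts at a depth of 15000000. Named list genes are up to 6 of smallest p between the lines and up to 4 in each treatment comparison; others were chosen after their values were seen. Intervals and floors cover counting error only. Gene positions are GENCODE 44 on GRCh38, and promoters are RefSeq windows of GRCh38.p14.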

Additional observations from a re-analysis of the deposited data

How the results depend on the processing

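Between the lines, 5 of the tested genes were called higher and 2 lower in H9 under all alternatives except limma on log2(TPM + 0.1), where GNAL lost its call (2.32, adjusted p = 0.0699). ADCY5 was never called there, and its log2 fold change of -0.02 became 0.0855 with DESeq2 size factors, 0.00636 with upper-quartile scaling, 0.0899 in DESeq2, 0.208 and 0.218 in limma with 1 or 0.1 added to TPM, and -0.0488 to 0.0146 when single libraries were left out. Its difference between the lines in the chronic effect became -0.376 and -0.402 in the 2 limma fits, in which the median of all genes shifted by -0.925 and -1.81. In the treatment comparisons the count of called genes went up to 1 with DESeq2 in H1 acute against control, H1 chronic against control (both DRD4) and H9 chronic against acute (PPP1R1B), and to 1 without a low-count filter in the last of these (PPP1R1B, -2.12, adjusted p = 0.0013). Without that filter edgeR called 1.37% of all genes lower in that comparison. DESeq2 without library 9 called 1 gene in H9 chronic against control, 2 in H9 chronic against acute (ADCY5, 0.33, adjusted p = 0.0205, and PPP1R1B, -2.14, adjusted p = 0.00549) and 1 in the line difference of the chronic effect, ADCY5 in both single cases. In H9 chronic against acute it called 1.78% of all genes higher and 3.03% lower. The cause of these changes was not tested. With library 9 included, mean H1 control levels were 138 TPM for DRD4, 25.3 for GNAL, 34.6 for ADCY5 and 0.71 for RGS9, in place of 3.5, 38.0, 47.0 and 1.07. Of 2153 fold changes under alternatives 121 had the other sign, and 0 of those were called under either setting. Of the striatal projection neuron genes limma called 18 or 17 higher and 1 lower in H9 (1 or 0.1 added). In the list of PKA, phosphatases and phosphodiesterases it called 8 or 6 higher and 0 lower. Across all 17173 tested genes these 2 fits called 4488 or 3655 higher and 1727 or 1284 lower. No paired analysis was possible because the labels number the libraries 1 to 18 with no number shared between groups. DRD1, DRD3, DRD4, DRD5 in H1 and PPP1R1B in H9 rest on few counts per library, which limits what could be detected, and the H1 control group rests on 2 libraries for levels.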
